A study of Schizosaccharomyces pombe with 12 samples.

Results

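The fission yeast Schizosaccharomyces pombe carries 3 genes of galactose utilisation side by side near the right end of chromosome II. They are gal1 (SPBPB2B2.13), which codes for galactokinase, gal7 (SPBPB2B2.10c), for galactose-1-phosphate uridylyltransferase, and gal10 (SPBPB2B2.12c), for a fused UDP-glucose 4-epimerase and aldose 1-epimerase. They were taken by symbol from the deposited tables, where each was listed, and are 3 of 5160 genes. All 3 passed the filter on low counts that 5024 genes passed.

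RNA was sequenced from 12 libraries, 3 each of the wild type (WT) and of 3 mutants of histone H2B, and each mutant was set against WT. The mutants carry substitutions of all 3 lysines 5, 10 and 15 of H2B, to alanine (A, H2BK5AK10AK15A), to glutamine (Q, H2BK5QK10QK15Q) or to arginine (R, H2BK5RK10RK15R). The label of A replicate 2 reads H2BK5AK10AK16A, with position 16 where the other A libraries have 15. The labels give no growth medium, no allele or agent shared by all groups, and no statement on whether cultures were separate, so a p-value covers only the spread between these libraries, which may be technical. Total counts were between 15329416 and 20050394 per library. On the first principal component, which held 44.5% of the variance, WT lay between -28.8 and -22.9, and replicate 2 was the highest library of each mutant, at 4.8 in A, 30.1 in Q and 34.8 in R, against -10.1 and -9.9, 8.1 and 11.1, and 4.5 and 5.7 for the other replicates.

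The enzymes act in sequence in the Leloir pathway. Galactokinase phosphorylates galactose, the uridylyltransferase exchanges galactose-1-phosphate with UDP-glucose to give UDP-galactose and glucose-1-phosphate, and the epimerase interconverts UDP-galactose and UDP-glucose. In budding yeast the corresponding genes are a textbook case of transcription induced by galactose and repressed by glucose. UDP-galactose is also the donor for the galactose residues of fission yeast cell surface glycoproteins.

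In the RefSeq assembly ASM294v3, gal7 lies at chrII:4482234-4483693 on the minus strand, gal10 at chrII:4484023-4487535 on the minus strand and gal1 at chrII:4488298-4490271 on the plus strand. The build behind the deposited tables is not given in the sources used here, and the tables hold no coordinates. The genes span 8038 bases, and gal1 ends 49.5 kb before the end of the assembled chromosome. gal10 and gal1 are divergent, with 762 bases between them, and 329 bases separate gal7 from gal10. SPBPB2B2.11, a predicted nucleotide-sugar 4,6-dehydratase gene, overlaps gal10 on the opposite strand over 3291 bases, and the non-coding SPNCRNA.1697, not analysed here, overlaps gal1 on the opposite strand. Whether counting used strand is not given in the sources used here, so how far the counts keep reads of the overlapping partners apart is not known.

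The 250 bases before each annotated start are shown from RefSeq (ASM294v3), 5′ to 3′ on the gene's own strand, since the genes sit together and their RNA levels are compared below. Capitals mark TATAAA, a form of the TATA box, which on the opposite strand reads TTTATA. The windows are chrII:4488048-4488297 for gal1 (plus strand, 30% G and C), chrII:4487536-4487785 for gal10 (minus strand, 37.6%) and chrII:4483694-4483943 for gal7 (minus strand, 40%).
gal1: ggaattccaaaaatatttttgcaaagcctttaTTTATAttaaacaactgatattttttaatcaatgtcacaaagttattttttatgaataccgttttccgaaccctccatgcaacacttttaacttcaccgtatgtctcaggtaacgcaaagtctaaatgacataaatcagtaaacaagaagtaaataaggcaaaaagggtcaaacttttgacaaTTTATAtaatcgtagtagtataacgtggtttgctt
gal10: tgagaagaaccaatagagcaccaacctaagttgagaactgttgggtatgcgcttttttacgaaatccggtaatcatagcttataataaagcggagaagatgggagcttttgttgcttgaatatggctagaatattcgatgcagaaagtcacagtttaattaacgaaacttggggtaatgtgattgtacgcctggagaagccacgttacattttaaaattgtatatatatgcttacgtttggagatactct
gal7: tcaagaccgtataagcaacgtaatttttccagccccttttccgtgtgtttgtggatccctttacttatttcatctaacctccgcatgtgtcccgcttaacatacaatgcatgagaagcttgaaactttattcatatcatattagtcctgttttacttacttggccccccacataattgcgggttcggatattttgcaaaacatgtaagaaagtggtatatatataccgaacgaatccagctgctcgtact

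TATAAA stood before gal1 at 218 to 213 and at 35 to 30 bases before the start, both times on the opposite strand. Those exact letters were absent from the gal10 and gal7 windows. Other TATA-like letters were not searched. The gal10 and gal7 windows hold tatatata near their ends, and the site nearer to gal1 runs into tatataa on the gene's own strand. A lack of TATAAA is thus not a lack of a TATA-like stretch. Over windows that add the first 50 bases of the gene, and counting both strands, 1 of the 3 galactose genes and 48.1% of 5112 annotated promoters held it. None of the 3 held CCCCTC, the core of the element bound by Rst2, an activator of glucose-repressed genes, which 2.11% of promoters held. None held TGACGT, the core of the element bound by the stress factor Atf1, which 5.91% held. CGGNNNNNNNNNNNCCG, the site of the budding yeast activator Gal4, was in none of the 3 and in 0.626% of promoters. These are matches of letters in a window, searched on both strands, and not evidence of binding or its absence.

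In WT the 3 genes were expressed at a low and similar level per length. FPKM, the deposited measure scaled by gene length and library size, was 11, 10.68 and 10.12 for gal1 in replicates 1, 2 and 3, 14.01, 12.19 and 10.08 for gal7, and 12.33, 10.3 and 8.88 for gal10, so the genes' ranges overlapped. Between 16% and 23.1% of all genes had a lower FPKM than a galactose gene in a WT library. In A this share was 30% to 38.1%, in Q 29.3% to 57% and in R 21.2% to 36.6%, over the 3 genes and the libraries of each group.

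gal1, the kinase of the first step, was at 21.4, 20.8 and 19.7 CPM (the count scaled to the library's total) in WT replicates 1, 2 and 3. It was at 46.5, 42.7 and 40.3 CPM in A, at 47.5, 55.3 and 39.6 CPM in Q and at 21.2, 32.4 and 20.7 CPM in R. Every A and Q library was above every WT library, whereas in R replicate 2 stood above WT and the other replicates lay within its range. The counts behind these values were 305 to 430 in WT, 689 to 767 in A, 655 to 918 in Q and 348 to 548 in R.

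gal7, whose enzyme forms UDP-galactose, was at 21.9, 19.1 and 15.8 CPM in WT replicates 1, 2 and 3. It was at 37.8, 36.6 and 33.2 CPM in A, at 35.9, 47.7 and 40.9 CPM in Q and at 26.1, 35 and 31.4 CPM in R. All 9 mutant libraries were above all 3 WT libraries. The share of all tested genes with this pattern was not computed. Taken 1 mutant at a time, all libraries of the mutant were above WT in 18.5% (A), 28.7% (Q) and 19% (R) of tested genes. The gal7 counts were 244 to 440 in WT and 457 to 792 in the mutants. The RNA came from many cells together, so a change in every cell and a change in the share of cells that express a gene cannot be told apart.

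gal10, the epimerase gene, was at 43.7, 36.6 and 31.5 CPM in WT replicates 1, 2 and 3. It was at 69.1, 81.3 and 83.7 CPM in A, at 65.2, 161 and 117 CPM in Q and at 37.5, 73.7 and 62.9 CPM in R. The A and Q libraries were above WT, the Q libraries spread over the widest range, and R replicate 1 lay inside the WT range while the other R libraries were above it. The counts were 487 to 877 in WT, 1140 to 1431 in A, 1000 to 2666 in Q and 656 to 1249 in R. Replicate 2 was the highest library of Q and of R for all 3 genes, but not of A for gal1, gal7 or gal10, and it was also the highest on the first principal component in each mutant. With replicate 2 of A, Q and R left out together, the log2 fold change in Q over WT was 1.0 for gal1, 0.94 for gal7 and 1.2 for gal10, all still called. In R over WT it was then 0.14 for gal1, 0.72 for gal7 and 0.54 for gal10, with gal7 alone called.

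**Figure D1:**
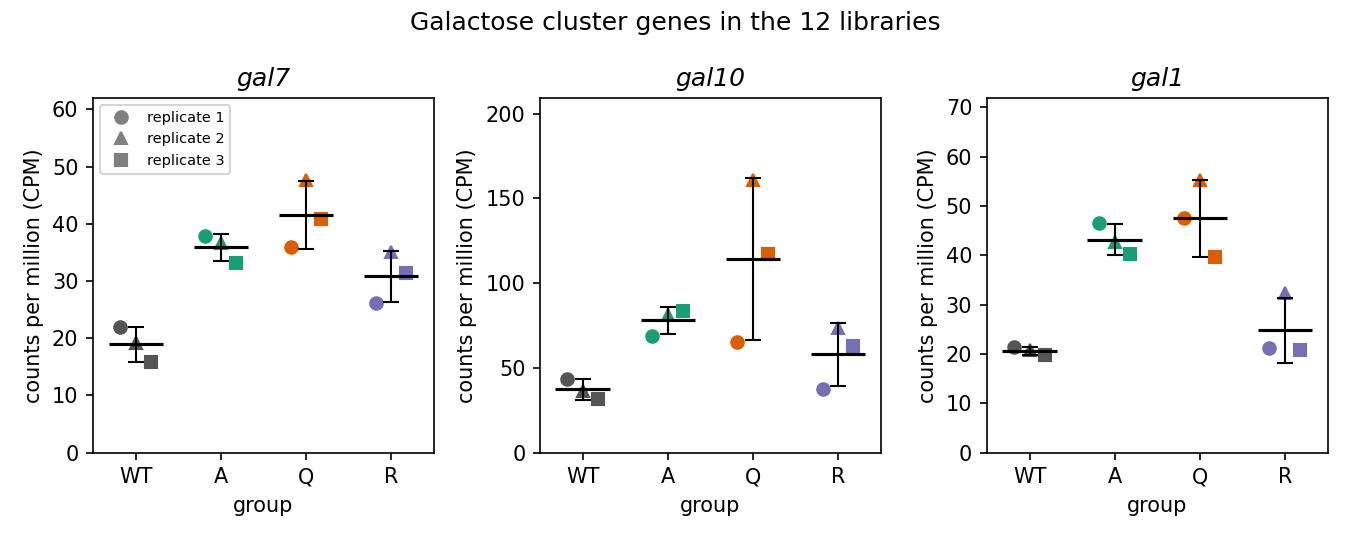
CPM of gal7, gal10 and gal1 in each library of WT, A, Q and R; points are libraries, with a shape for each replicate number, horizontal lines are group means and bars are SDs (n = 3). All A and Q libraries lie above all WT libraries for each gene, and R lies apart from WT for gal7 only.

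The comparison of A with WT asks whether the loss of the lysines to alanine changes the RNA of these genes. gal1 rose 2.14-fold, from 20.7 ± 0.871 to 43.2 ± 3.12 CPM (mean ± SD, n = 3, as for every group mean here; 1.1 on the log2 scale, SE 0.18, adjusted p = 0.0174, edgeR's quasi-likelihood test with Benjamini-Hochberg adjustment over all genes). gal7 rose 1.94-fold, from 18.9 ± 3.08 to 35.9 ± 2.42 CPM (log2 0.95, SE 0.17, adjusted p = 0.0174). gal10 was at 37.3 ± 6.15 CPM in WT and 78 ± 7.85 CPM in A, a fitted ratio of 2.15 that did not pass the threshold of 0.05 (log2 1.1, SE 0.31, adjusted p = 0.0618). Thus 2 of the 3 genes were called higher, where 2.73% of all tested genes were called higher, 1.43% lower and 4.16% in either direction. In 18.5% of tested genes all A libraries were above all WT libraries, as they were for the 3 galactose genes. The calls depended on single libraries: without WT replicate 1, 2 or 3 or A replicate 2, adjusted p was 0.0967, 0.0627, 0.101 or 0.058 for gal1 and 0.0689, 0.0627, 0.102 or 0.0607 for gal7, while gal10 was called without Q replicate 1 (0.0286), Q replicate 2 (0.0368) or R replicate 2 (0.0363). gal10 was also called with only the A and WT libraries in the fit (0.005), with replicate 2 of the 3 mutants left out together (0.039) and with DESeq2 (0.00873).

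In Q, with glutamine at the positions, all 3 genes rose. gal1 rose 2.27-fold to 47.4 ± 7.86 CPM (log2 1.18, SE 0.18, adjusted p = 0.00297) and gal7 2.16-fold to 41.5 ± 5.9 CPM (log2 1.11, SE 0.17, adjusted p = 0.00297). gal10 rose 3.04-fold to 114 ± 47.7 CPM (log2 1.6, SE 0.31, adjusted p = 0.00528). The 3 calls stand against 18.6% of all tested genes called higher and 34.5% called in either direction in Q, and 28.7% of tested genes had all Q libraries above all WT libraries. By size, 73 of the 5024 tested genes had a larger log2 fold change than gal10, 174 than gal1 and 202 than gal7. The gal10 log2 fold change was 1.22 without Q replicate 2 and 1.89 without Q replicate 1, and all 3 genes were called in each of the 20 alternatives.

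In R, with arginine, the genes did not share a call. gal7 rose 1.73-fold to 30.8 ± 4.44 CPM (log2 0.79, SE 0.17, adjusted p = 0.0093) and was called in each of the 20 alternatives. gal1 was at 24.8 ± 6.58 CPM, 1.27 times WT by the fit (log2 0.35, SE 0.18, adjusted p = 0.167). gal10 was at 58 ± 18.6 CPM, 1.65 times WT (log2 0.72, SE 0.3, adjusted p = 0.0973), and was called without Q replicate 1 (0.0422) or R replicate 1 (0.0462). The 1 call of 3 stands against 13.2% of all tested genes called higher and 24.2% called in either direction, and 19% of tested genes had all R libraries above all WT libraries. The comparisons of A, Q and R with WT share the same 3 WT libraries and are not independent of each other.

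The authors' deposited table of comparisons gives log2 ratios of 1.06, 1.2 and 0.26 for gal1 in A, Q and R, with FDRs of 6.36e-17, 5.75e-08 and 0.159. For gal7 the authors' deposited table gives 0.92, 1.13 and 0.7, with FDRs of 8.73e-08, 1.52e-06 and 0.000159. For gal10 the authors' deposited table gives 1.07, 1.61 and 0.64, with FDRs of 5.97e-09, 2.19e-06 and 0.015. That test was thus below 0.05 for gal10 in A and in R, where edgeR's was not.

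**Figure D2:**
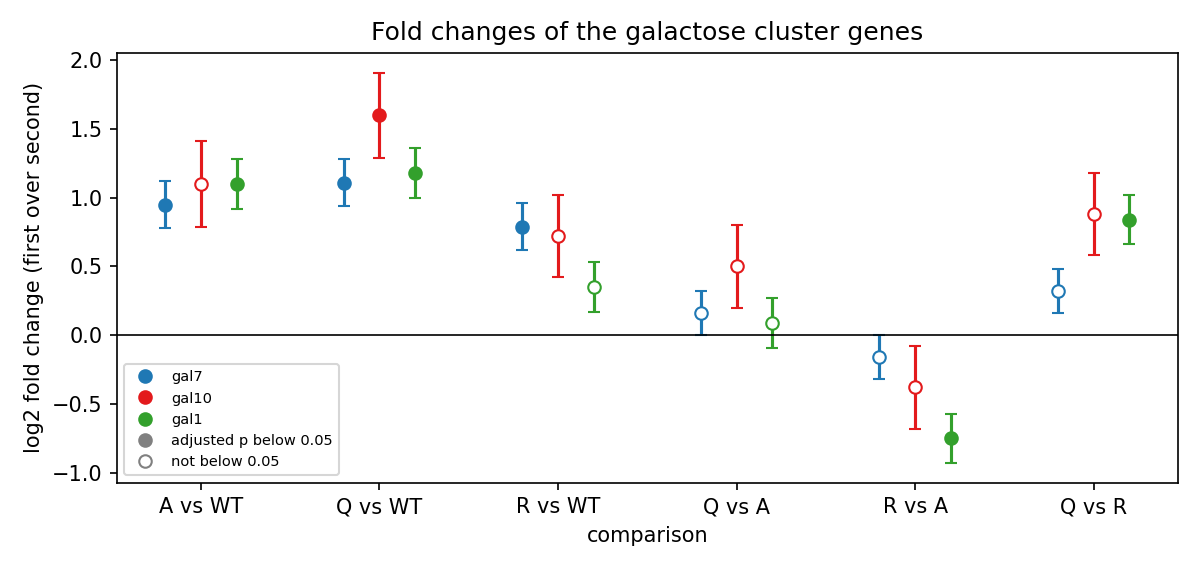
Log2 fold changes of gal7, gal10 and gal1 in the 6 comparisons between groups (first group over second), from the edgeR fit; bars are SEs, and filled points have an adjusted p below 0.05. All 3 genes are filled for Q over WT, and between mutants only gal1 is filled, at -0.75 for R over A and 0.84 for Q over R.

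Between the mutants, gal1 was the gene of the cluster that passed the test. It was lower in R than in A (log2 -0.75, SE 0.18, adjusted p = 0.04995), and no R library reached an A library. It was higher in Q than in R (log2 0.84, SE 0.18, adjusted p = 0.0236), again with no overlap. In R against A 1 of 3 genes was called lower, where 1.59% of tested genes were called lower, 2.47% were called in either direction and 17.8% had all R libraries below all A libraries. In Q against R 1 of 3 was called higher, where 2.07% were called higher, 3.64% were called in either direction and 15.5% had all Q libraries above all R libraries. Libraries of equal replicate number were taken as paired for R with A and for Q with R, from correlations in the data and not from the labels. A replicate block was fitted over all 12 libraries at once, so it also covered groups not taken as paired. With this block adjusted p for gal1 in edgeR's test was 0.0151 in R against A and 0.0141 in Q against R. The pairing was taken from these same data, so these values are not separate support for the calls. In R against A 364 genes were called with the block, where 124 were called without it. The R against A call was lost without any 1 of the WT or A libraries and without R replicate 1 or 3, with adjusted p between 0.0751 and 0.157, and the Q against R call without Q replicate 1 (0.0626), Q replicate 2 (0.0591), R replicate 1 (0.104) or R replicate 3 (0.118).

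gal7 did not pass the test between mutants. Its log2 fold change was 0.16 in Q over A (adjusted p = 0.619), -0.16 in R over A (0.584) and 0.32, SE 0.16, in Q over R (0.303), although the 3 Q libraries were all above the 3 R libraries. gal10 was at 0.5 in Q over A (adjusted p = 0.38), -0.38 in R over A (0.479) and 0.88, SE 0.3, in Q over R (0.142), with overlapping libraries in each. Without Q replicate 1 the Q over R value of gal10 passed (adjusted p = 0.0429). Between Q and A gal1 was at 0.09 (adjusted p = 0.82), and none of the 3 genes was called, where 0.0398% of tested genes were called, 2 in all, and 926 genes had an unadjusted p below 0.05.

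The proportions of the 3 RNAs to each other were read from FPKM within a library. The ratio of gal7 to gal1 was 1.53, 1.35 and 1.88 in R replicates 1, 2 and 3, a mean of 1.59 ± 0.272. It was 1.14 ± 0.139 in WT, 1.04 ± 0.0295 in A and 1.1 ± 0.174 in Q. The 3 R libraries were above all 9 others, the highest of which was at 1.29. The share of other gene pairs with such a separation was not computed. In an exact two-sided permutation test of R against WT p was 0.1, the smallest that 3 against 3 libraries allow, and 0.6 after Benjamini-Hochberg adjustment over 6 such comparisons.

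The ratio of gal10 to gal1 was 0.755, 1.6 and 1.62 in Q replicates 1, 2 and 3 and 0.972, 1.25 and 1.67 in R. It was 0.988 ± 0.123 in WT and 1 ± 0.167 in A, so Q replicate 1 was below every WT library, R replicate 1 was inside the WT range, and the other Q and R libraries were above it. In the same exact permutation test p was 0.4 for Q and 0.2 for R against WT. gal10 to gal7 was 0.869 ± 0.0205 in WT, 0.967 ± 0.154 in A, 1.18 ± 0.349 in Q and 0.817 ± 0.16 in R. Here gal10 may include reads of the overlapping SPBPB2B2.11, whose own level was 3.28 to 11.4 CPM over the 12 libraries. The level listed for gal10 was 31.5 to 161 CPM. How many reads they share was not tested.

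**Figure D3:**
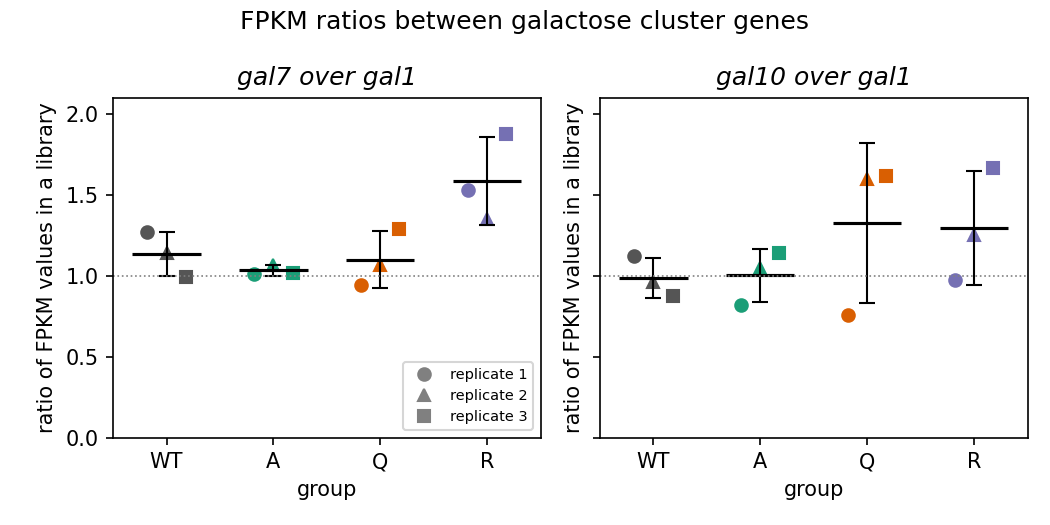
Ratios of FPKM within a library, gal7 over gal1 (left) and gal10 over gal1 (right), in WT, A, Q and R; points are libraries, horizontal lines are group means and bars are SDs (n = 3). The gal7 to gal1 ratio is 1.35 or more in each R library and at most 1.29 in every other library.

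The cluster's surroundings were described from the 8 genes on either side that the tables hold and SPBPB2B2.11 on the strand opposite to gal10, 17 in all, of which 14 were tested. In Q 8 of the 14 were called higher and 0 lower, with a median log2 fold change of 0.96 beside 0.02 for all tested genes, of which 18.6% were called higher and 15.8% lower. In A 4 were higher and 0 lower (median 0.99, all genes 0.01), where 2.73% of all tested genes were higher and 1.43% lower. In R 3 were higher and 2 lower (median -0.1, all genes -0.01), where 13.2% of all tested genes were higher and 11.1% lower. With 1 library left out, the number called higher was 0 to 5 in A, 7 to 9 in Q and 1 to 3 in R. In A it was 0 without WT replicate 1, 2 or 3 or A replicate 2, and 1 with A replicate 3 left out. It was 2 without A replicate 1, Q replicate 2 or 3 or R replicate 3. In R 1 was higher without WT replicate 3, and 1 was lower without WT replicate 1 or 3 or R replicate 1 or 2. Copies of at least 95% identity over at least 50% of the length exist elsewhere for 9 of the 17 genes, 8 of them next to one another on the telomere side of gal1, so their counts are uncertain, and gal1, gal7 and gal10 have none. Of the 7 tested genes without a copy, 4 were called higher in Q, 3 in A and 1 in R, where 2 were called lower.

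pan5, a predicted 2-dehydropantoate 2-reductase gene and the neighbour of gal7, was at 44.1, 46.9 and 39.5 CPM in WT replicates 1, 2 and 3, 68.8, 71.9 and 57.6 CPM in A, 73.6, 73.7 and 92.6 CPM in Q and 36.1, 49.2 and 43.5 CPM in R. Its A and Q libraries were all above WT, as in 18.5% (A) and 28.7% (Q) of all tested genes, and its R libraries overlapped WT. The log2 fold change against WT was 0.64 in A (adjusted p = 0.0253), 0.85 in Q (0.00306) and 0.07 in R (0.721), and 0.78 in Q over R (0.00923). In A it did not pass without WT replicate 1 (0.114), 2 (0.0699) or 3 (0.133) or A replicate 1 (0.0592) or 2 (0.0903).

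Farther from gal7 on the centromere side, 1 gene was called higher and 2 lower in R. fub2, a predicted proteasome regulator gene and the farthest of the 8, was at 20.1, 19.7 and 14.6 CPM in WT replicates 1, 2 and 3, 35.2, 214 and 98.8 CPM in A, 226, 830 and 719 CPM in Q and 226, 811 and 286 CPM in R. All mutant libraries were above WT, as in 18.5% (A), 28.7% (Q) and 19% (R) of all tested genes taken 1 mutant at a time. Replicate 2 was the highest of each mutant. fub2 rose in Q (log2 5.01, adjusted p = 0.00297) and in R (log2 4.67, adjusted p = 0.00249), in both with any library left out. It also rose in A (log2 2.73, adjusted p = 0.0462), a call that 4 of the 12 fits with 1 library left out made: it did not pass without any 1 of the WT libraries, A replicate 2 or 3, Q replicate 2 or 3 or R replicate 3 (adjusted p between 0.0501 and 0.188). mug180, a predicted esterase or lipase gene, was at 25.8, 21 and 22.4 CPM in WT, 32.2, 37.6 and 47.8 CPM in Q and 13, 15.5 and 14 CPM in R. It rose in Q (log2 0.74, adjusted p = 0.00811) and fell in R (log2 -0.61, adjusted p = 0.0241), with the R call lost without WT replicate 1 (0.0991) or 3 (0.0691) or R replicate 1 (0.0568) or 2 (0.0534). SPBPB2B2.06c, a predicted phosphatase gene, was at 3.99, 4.03 and 5.82 CPM in WT and 1.31, 0.886 and 1.31 CPM in R, and it fell in R (log2 -1.87, adjusted p = 0.0101). SPBPB2B2.01, a predicted amino acid transporter gene, was lower in each mutant but not called. Its log2 fold change was -1.31 in A, -1.67 in Q and -1.43 in R (adjusted p = 0.304, 0.109 and 0.179). All mutant libraries were below WT, as in 22% (A), 24.1% (Q) and 37.1% (R) of all tested genes taken 1 mutant at a time. SPBPB2B2.11, opposite to gal10, was at log2 -0.3 in A, 0.04 in Q and -0.11 in R (adjusted p = 0.731, 0.948 and 0.872).

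**Figure D4:**
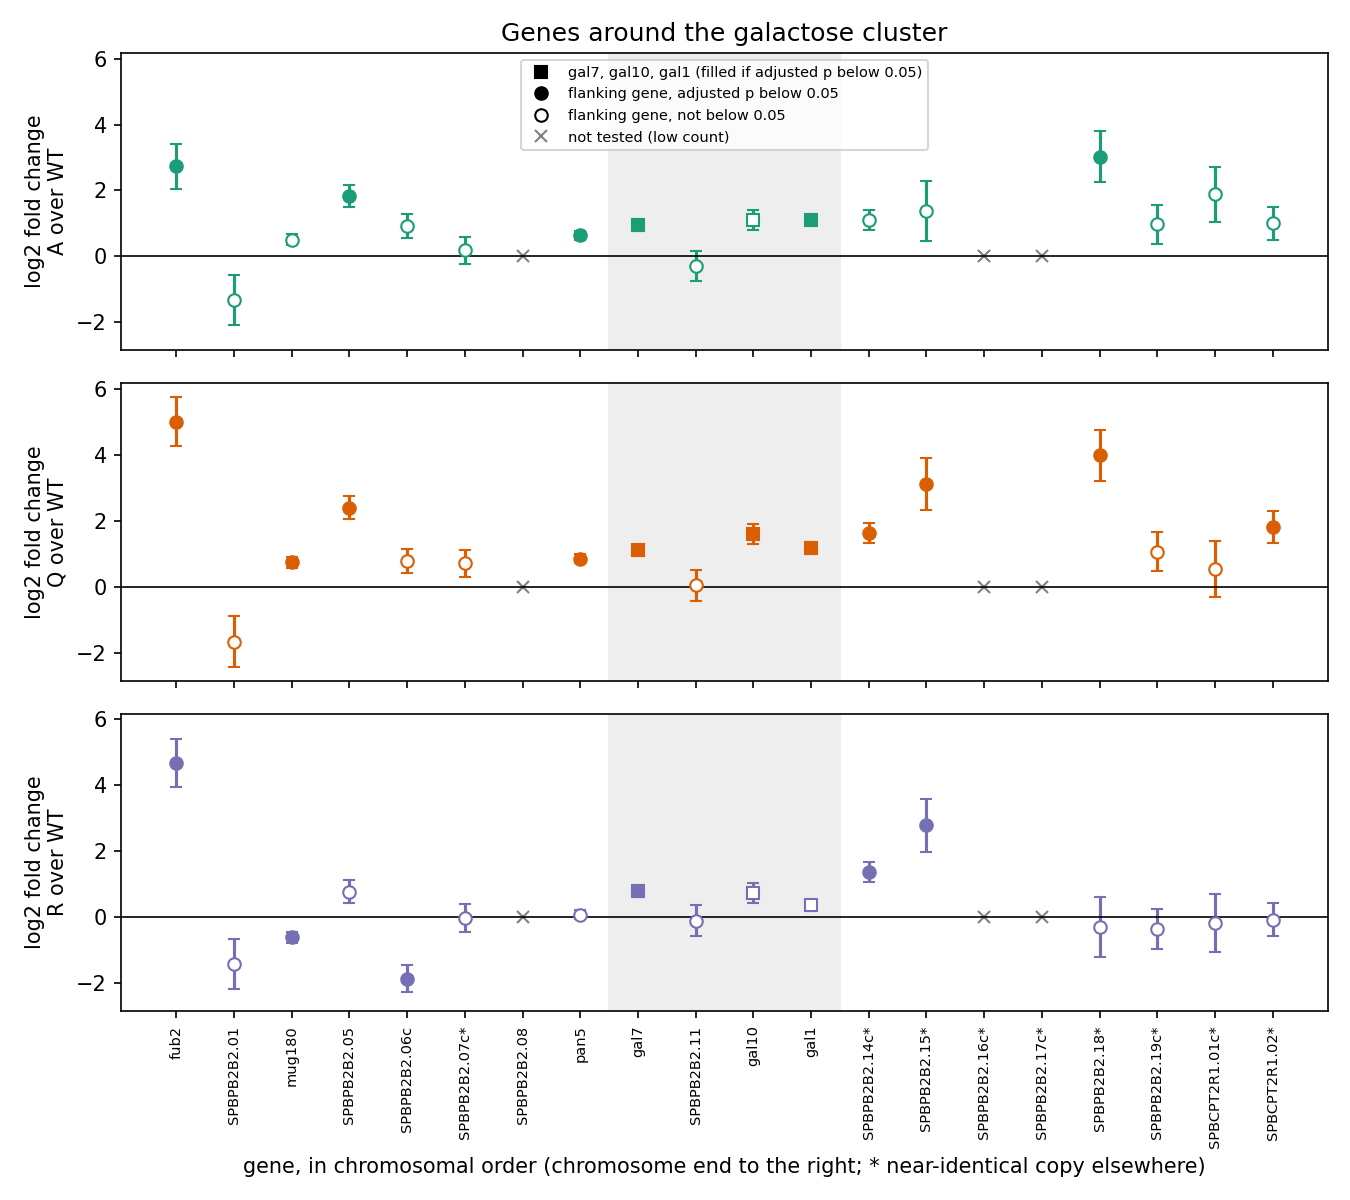
Log2 fold changes in A, Q and R over WT for gal7, gal10, gal1 (squares, on grey with SPBPB2B2.11) and the 16 genes beside them in chromosomal order; bars are SEs, filled points have an adjusted p below 0.05, crosses are genes too low to test and asterisks mark near-identical copies elsewhere. In Q 8 flanking genes are filled and all are above 0, whereas R has 3 filled above and 2 filled below 0.

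Other genes of galactose and UDP-sugar metabolism were described from a list of 4, all tested. Of these 0 were called in A, 1 was higher in Q and 1 in R, with medians of 0.29, 0.46 and 0.11, beside 0.01, 0.02 and -0.01 for all tested genes. Over all tested genes 18.6% were called higher in Q and 13.2% in R, so 1 of 4 is near the background. The gene called, in Q as in R, was uge1, the gene of the other UDP-glucose 4-epimerase, outside the cluster. uge1 was at 340, 389 and 355 CPM in WT, 448, 495 and 428 CPM in A, 522, 701 and 586 CPM in Q and 553, 674 and 558 CPM in R. All mutant libraries were above WT, as in 18.5% (A), 28.7% (Q) and 19% (R) of all tested genes taken 1 mutant at a time. The log2 fold change of uge1 was 0.72 in Q (adjusted p = 0.00525) and 0.81 in R (0.00383), called with any library left out, and 0.38 in A (0.122). mel1, an alpha-galactosidase gene named after its values were seen, was at 8.53, 5.58 and 8.08 CPM in WT, 16.4, 23.9 and 19.6 CPM in A, 34.1, 2.83 and 22.6 CPM in Q and 1.77, 3.13 and 1.67 CPM in R. mel1 was lower in R than in A (log2 -3.14, adjusted p = 0.0232), and higher in Q than in R (log2 3.04, adjusted p = 0.0232) although Q replicate 2 lay among the R libraries. The first call was lost without A replicate 1 (0.0539) or 3 (0.0597) or R replicate 1 (0.0707), 2 (0.0556) or 3 (0.101), and the second without Q replicate 1 (0.0772) or 3 (0.0698) or R replicate 1 (0.0977) or 3 (0.114). Against WT it did not pass in A, Q or R (adjusted p = 0.152, 0.0868 and 0.0713), and without Q replicate 2 it passed in each (0.0212, 0.00961 and 0.0045).

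Among 16 genes listed under galactosylation of glycans, 1 was called higher and 1 lower in A. In Q 3 were higher and 2 lower, and R had 2 higher and 1 lower. The share called in either direction over all tested genes was 4.16% for A, 34.5% for Q and 24.2% for R, so the counts in Q and R are near or below the background. Their median log2 fold changes were -0.06, 0.06 and 0.1, beside 0.01, 0.02 and -0.01 for all tested genes. gma12, an alpha-1,2-galactosyltransferase gene, was at log2 0.46 in A (adjusted p = 0.0299) and 0.48 in R (0.0093), and otg3, another galactosyltransferase gene, at 0.61 in Q (0.00634). In A gma12 did not pass without any 1 of the WT or A libraries (adjusted p between 0.0584 and 0.148), nor in R without WT replicate 1 (0.0529). Of the genes called lower, otg2 was at 75.2 CPM in WT and 34.1 CPM in A (log2 -1.11, adjusted p = 0.0253), and otg1 at 176 CPM in WT and 121 CPM in Q (log2 -0.57, adjusted p = 0.0258). gmh1, a predicted alpha-1,2-galactosyltransferase gene, was at 32.4 CPM in WT, 13.2 CPM in Q (log2 -1.34, adjusted p = 0.0344) and 10.7 CPM in R (log2 -1.49, adjusted p = 0.0318). The otg2 call was lost without any 1 of the WT or A libraries (adjusted p between 0.0592 and 0.118), and that of otg1 without WT replicate 1 (0.077) or 3 (0.0702) or Q replicate 1 (0.0652) or 2 (0.076). For gmh1 the calls were lost without any 1 of the WT libraries, in Q also without Q replicate 1 or 2 and in R without R replicate 2 (adjusted p between 0.0691 and 0.117 in Q and between 0.0667 and 0.086 in R).

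Among 7 genes listed as glucose-repressed genes of carbon source use, 1 was called higher in A, 2 in Q and 2 in R, and 0 lower in each. Their medians were 0.92, 0.2 and 0.74, beside 0.01, 0.02 and -0.01 for all tested genes. The A libraries differed: inv1 was at 1020, 632 and 2346 CPM in A replicates 1, 2 and 3, and gld1 at 121, 54.2 and 240 CPM. Replicate 3 was likewise highest for agl1 (55.5, 56.9 and 122 CPM) and mal1 (313, 269 and 488 CPM). It was not for eno102 (157, 196 and 118 CPM) or adh4 (231, 129 and 142 CPM). Over all tested genes 2.73% were called higher in A, 18.6% in Q and 13.2% in R. With 7 genes, 1 or 2 calls do not set the list apart from these shares. In Q the mean CPM was below WT for inv1 (514, WT 727), gld1 (38.4, WT 46.9) and adh4 (180, WT 208), none of them called. It was above WT for eno102, fbp1, mal1 and agl1. eno102, an enolase gene, rose in A (log2 0.95, adjusted p = 0.0253) and Q (log2 1.2, adjusted p = 0.00357), and stood at log2 0.23 in R (adjusted p = 0.409). In A eno102 did not pass without WT replicate 1 (0.119), 2 (0.0793) or 3 (0.124) or A replicate 1 (0.0582) or 2 (0.0903). fbp1, fructose-1,6-bisphosphatase of gluconeogenesis and the standard reporter of glucose repression, was at 87.8, 87.8 and 79.7 CPM in WT, 101, 151 and 153 CPM in A, 147, 470 and 254 CPM in Q and 162, 553 and 161 CPM in R. It rose in Q (log2 1.77, adjusted p = 0.017) and in R (log2 1.85, adjusted p = 0.0204), with replicate 2 highest in both. Without replicate 2 adjusted p was 0.0794 in Q and 0.0961 in R, and without WT replicate 1, 2 or 3 it was 0.0526, 0.0515 or 0.0613 in Q and 0.0708, 0.0585 or 0.0729 in R. mal1, the other gene called in R, was at 258 CPM in WT and 517 CPM in R. Its call was lost only without WT replicate 3 (adjusted p = 0.0552).

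Among 18 genes of glucose signalling and repression, 0 were called in A, 4 were higher and 3 lower in Q, and 2 were higher in R, with medians of 0.07, -0.12 and -0.02, beside 0.01, 0.02 and -0.01 for all tested genes. With 34.5% of all tested genes called in Q and 24.2% in R, these counts are near or below the background. The genes of the Tup corepressors moved apart in Q, where tup11 fell (log2 -0.45, adjusted p = 0.00572) and tup12 rose (log2 0.57, adjusted p = 0.0234). tup12 also rose in R (log2 0.59, adjusted p = 0.0267). The tup12 calls were lost without any 1 of the WT libraries or without replicate 2 of the mutant, and in Q also without replicate 1, with adjusted p between 0.0584 and 0.0748 in Q and between 0.066 and 0.108 in R.

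The genes whose profile over the 12 libraries was most like that of the galactose genes were ranked by the root mean square difference of centred log2 CPM from the mean profile of gal1, gal7 and gal10. The median of this difference over all tested genes was 0.58, and gal1, gal7 and gal10 themselves were at 0.19, 0.15 and 0.21. Each galactose gene is part of the mean profile it is compared with, so its own value is lowered by construction. Their values therefore cannot show whether the galactose genes changed together. The 5 closest were wtf5 at 0.21, and apl1, uaf2, ntp1 and ssl3, each at 0.22. apl1 codes for a subunit of an adaptor complex of vesicle transport, uaf2 for the small subunit of the splicing factor U2AF, ntp1 for trehalase and ssl3 for a cohesin loading factor, and wtf5, an assembled locus of a family with near-identical copies, is uncertain. All 5 were called higher in Q, with log2 fold changes between 0.96 for ntp1 and 1.22 for ssl3, where 18.6% of all tested genes were called higher. They were picked for likeness to genes that rose in Q, so their rise in Q is not a separate result. The likeness is a description over 12 libraries that share the group differences, and by deviations within groups alone 0 of the 5 were among the 5 closest.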

How the data were processed

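RNA was measured in 12 libraries, 3 each of WT, A, Q and R, grouped by title and genotype label. Per the labels' protocols, RNA was extracted with Trizol, enriched for mRNA with oligo(dT) and amplified by PCR. Per the submitters' processing notes the tools were fastp, Bowtie2, HISAT2, StringTie, RSEM and DESeq2, with no roles. For build, annotation and strand handling, the status is: not given in the sources used here.

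The authors' tables give, per the file headers, a count and an FPKM value for every gene and library, and the authors' deposited comparisons hold a log2 ratio, a p-value and an FDR. FPKM, the authors' measure per length, was used for levels between genes.

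The test was run on counts in edgeR 4.0.16 (R 4.3.3; filterByExpr, which left out 136 genes, TMM, 1 quasi-likelihood fit of all 12 libraries by group, 6 contrasts, Benjamini-Hochberg adjustment over 5024 genes, two-sided, called below 0.05), and the fit was tested on simulated data. The common biological coefficient of variation was 0.186. SEs are approximate, computed as the log2 fold change over the root of F. CPM divides by the library's total count, and 3 counts, the limit that a count of 0 allows, are 0.15 to 0.196 CPM, covering counting error only. Copies were sought with BLAST 2.17.0. Promoters and positions come from RefSeq ASM294v3, to which 5109 gene identifiers matched.

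The 3 genes and the 4 lists (45 names, all 45 matched) were chosen with earlier results of these data known. Named are the 3 genes, the gene opposite to gal10, 8 genes on either side, up to 4 called genes per list and mutant, uge1 and the 5 genes closest in profile, of which only examples are described; mel1 was added after its values were seen. Deviations from group means of equal replicate numbers correlated at 0.32, 0.4 and 0.29 for Q with R and at 0.18, 0.32 and 0.19 for R with A, taken as paired from the data, as the labels state no shared batch. The other group pairs had at least 1 value below 0.1. Libraries of unlike replicate number were not compared, and replicate 2 lay highest on the first principal component in A, Q and R. Whether the numbers mark a shared batch was therefore not tested.

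Alternatives were RLE size factors, no filter, DESeq2 1.42.0, limma 3.58.1 on log2(FPKM + 1) and log2(FPKM + 0.1), only the groups compared, a replicate block, each library left out, replicate 2 of the mutants left out together (chosen with earlier results known), CPM per implied length for the ratios, the 250-base promoter window and likeness by deviations within groups.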

Additional observations from a re-analysis of the deposited data

How the results depend on the processing

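With 3 libraries per group, calls near the threshold turned on single libraries. The Q calls of gal1, gal7 and gal10 and the R call of gal7 held in all 20 alternatives, and no direction of a called value reversed. With 1 library left out, the number of galactose genes called was 0 to 3 in A, 1 to 2 in R, 0 to 1 in R against A and 0 to 1 in Q against R. All genes called then ranged from 2 to 628 in A, 841 to 2022 in Q, 325 to 1435 in R, 1 to 184 in Q against A, 51 to 333 in R against A and 51 to 462 in Q against R. In R against A no galactose gene was called with RLE size factors (0), no filter (0) or only the 2 groups (0), and in Q against R none with only the 2 groups (0), where gal1 had adjusted p of 0.0519, 0.0507, 0.0871 and 0.161. The number of genes called in A was 209, and 546 with DESeq2, 933 with only the 2 groups, 464 with the replicate block and 650 without replicate 2 of the mutants. In Q against A it was 2, and 115 with DESeq2, 1 with limma at either pseudocount, 0 with only the 2 groups, 96 with the replicate block and 453 without replicate 2. In R against A it was 124, and 444 with DESeq2, 364 with the replicate block and 464 without replicate 2. In Q against R it was 183, and 344 with DESeq2, 42 with only the 2 groups and 882 without replicate 2. The cause of these changes was not tested, except that settings with only the 2 groups or without replicate 2 use fewer libraries. With the replicate block, 3 galactose genes were called in A (gal10 adjusted p = 0.0325), and the block changed no other call of theirs. The block was fitted over all 12 libraries, also where they were not taken as paired. Where libraries were not taken as paired (A, Q or R with WT, Q with A), correlations of deviations were 0.12, 0.28 and 0.05, -0.08, 0.08 and -0.03, -0.06, 0.18 and -0.07, and -0.18, 0.2 and 0.13.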
